A study of Mus musculus with 2 samples.

Results

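Nuclear receptors and the coregulators that act with them were followed in liver RNA of mice on a diosgenin diet and of mice on the basal diet. The set held 37 genes chosen by symbol and function, 30 receptors and 7 coregulators. Clock receptors, thyroid hormone receptors and the immediate early Nr4a genes were left out of it. Of the 37 genes, 35 had at least 1 probe set with exactly 1 gene symbol, among 18194 such genes on the array. The oxysterol receptor Nr1h2 (LXRβ) and the corepressor Ncor1 were not analysed here.

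The diosgenin group comprised 3 ICR mice, an outbred stock, fed the CRF-1 basal diet supplemented with diosgenin at 500 ppm for 4 weeks, starting at 9 weeks of age. Diosgenin is the steroidal aglycone of plant saponins. The control group comprised 3 ICR mice of the same age on CRF-1 alone. Livers were taken at 13 weeks, and the RNA of the 3 mice of a diet was pooled onto 1 Affymetrix array, so there were 2 arrays and no replicates. Cages held 3 mice, and the sources used here do not say whether each diet was a single cage or which sex the mice were.

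Nuclear receptors are transcription factors, most of which are switched by small lipid-soluble ligands. In liver, FXR and SHP restrain bile acid synthesis, LXR answers to oxysterols, PXR and CAR to foreign compounds, and PPARα to fatty acids. Many bind DNA as a heterodimer with a retinoid X receptor. Corepressors hold target genes silent, and coactivators bring in histone acetyltransferases and the Mediator complex.

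All values below are probe set signals on a linear intensity scale and, as differences, log2 ratios with the control array as denominator. Signals under a floor of 10.7 were set to the floor before the ratio was taken. A gene was read by its brightest probe set and kept if its mean over both arrays was at least 28.4 (the 60th percentile). With 1 pool per diet there is no p-value or error for the difference, and the words higher and lower compare those pools. The nearest to an error on the arrays was the standard deviation of 0.28 in log2 ratio between probe sets of the same gene, over 4079 genes. It contains no spread between mice. Both arrays had a trimmed mean signal of 96.9, and hepatocyte markers were bright on both, with albumin (Alb) at 8429 on the diosgenin array and 9517 on the control array.

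Of the 35 genes, 31 passed the filter and 4 did not. Of the 31, 14 were higher and 17 lower on the diosgenin array, against backgrounds of 49% and 51% of the 9732 genes above the filter. Their median log2 ratio was -0.092, against -0.0053 over all genes. None was at least 1.5-fold higher, where the background was 2.84%, and 2 were at least 1.5-fold lower, where it was 3.61%. Past a smaller fold, a log2 ratio of 0.32, 3 were higher and 5 lower, against backgrounds of 10.6% and 11.8%. Both ways together, 8 of 31 (25.8%) were past that ratio against 22.4% of all genes, and 2 of 31 (6.45%) at least 1.5-fold apart against 6.44%. The shares of receptors and coregulators past these folds were thus near those of all genes. Within 0.28 of 0 lay 22 of the 31 (71.0%), against 72.4% of all genes. The plot of the log2 ratio against signal shows most of them well inside the cloud of other genes.

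**Figure D1:**
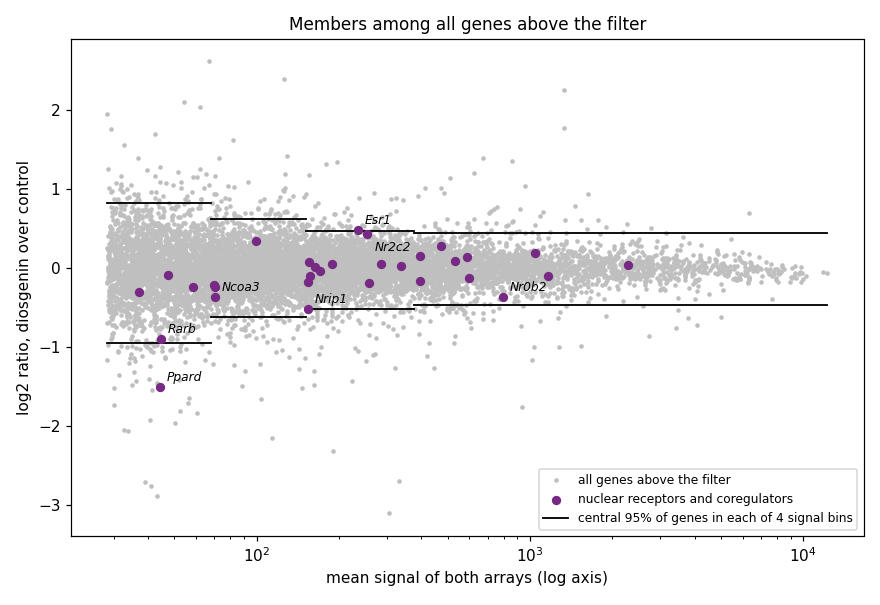
Log2 ratio (diosgenin over control) against the mean signal of both arrays (log axis) for the 9732 genes above the filter (grey) and the 31 receptors and coregulators (purple), where black lines bound the central 95% of genes in each of 4 equal bins of signal. Ppard and Esr1 lie outside these bounds, against 5.01% of all genes.

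The 3 genes higher by a log2 ratio of at least 0.32 were the estrogen receptor Esr1 and the testicular orphan receptors Nr2c2 and Nr2c1. The 5 lower ones were the fatty acid receptor Ppard, the retinoic acid receptor Rarb, the corepressor Nrip1, the coactivator Ncoa3 and the bile acid repressor Nr0b2. The remaining 23 differed by less than that, among them Hnf4a, Rxra, Nr1h4, Nr1h3, Ppara and Nr3c1, which are receptors that liver is known for. The plot of signals by gene shows that most receptors stood at nearly the same level on both arrays.

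**Figure D2:**
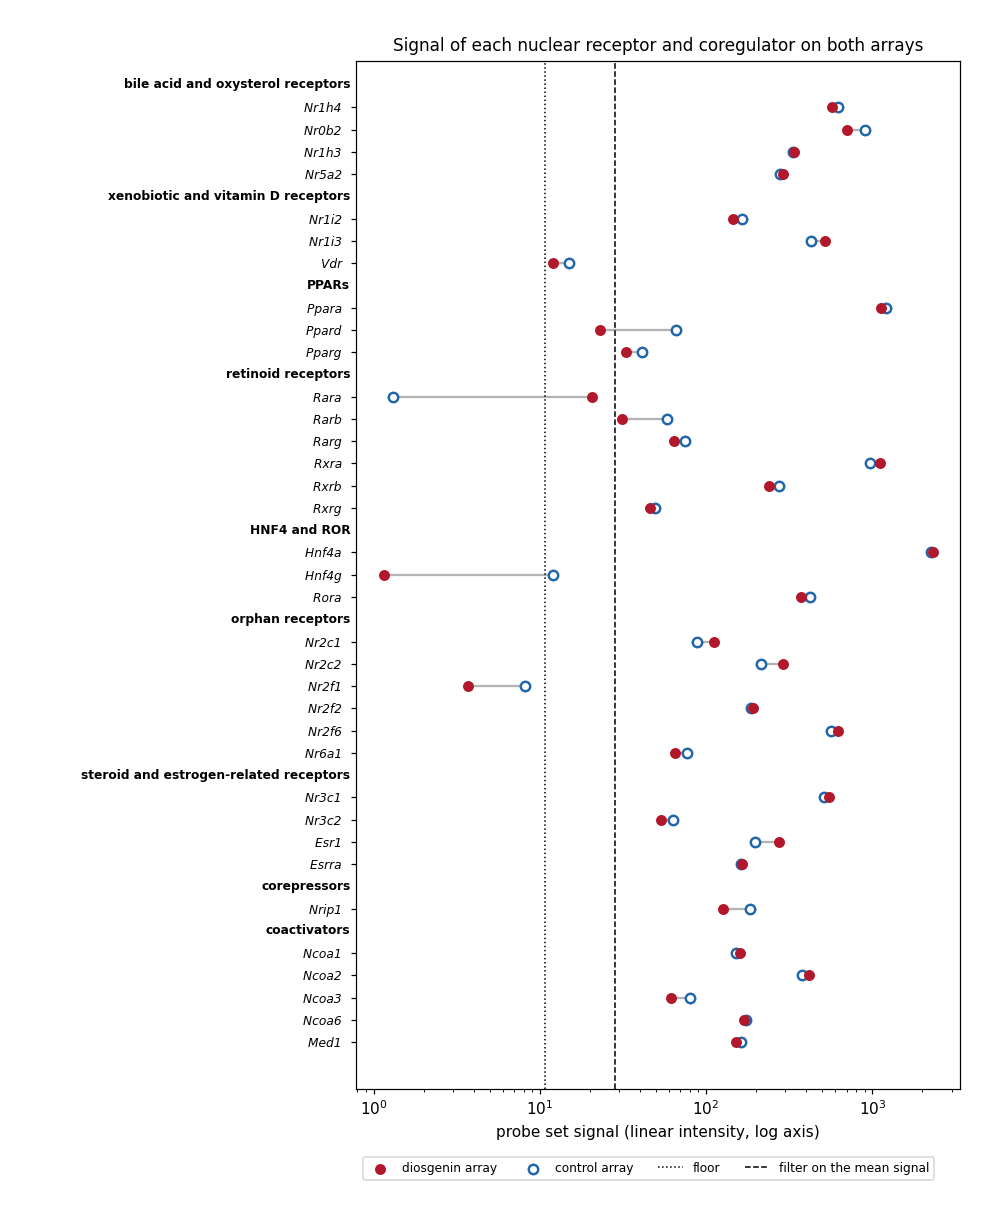
Signal of the brightest probe set of each of the 35 genes (linear intensity on a log axis), with the diosgenin array as filled red points and the control array as open blue points, grouped by role. The pairs farthest apart are dim: Rara, Hnf4g and Nr2f1 lie under the filter (dashed line), and Ppard has 23.1 on the diosgenin array and 65.7 on the control array.

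Among the receptors of bile acids and oxysterols, the repressor had the largest difference by brightest probe sets, although another probe set of Nr5a2 differed more. Nr0b2 (SHP), a receptor without a DNA-binding domain that represses the bile acid synthesis gene Cyp7a1, had a signal of 699.8 on the diosgenin array and 900.0 on the control array, a log2 ratio of -0.36 or 1.29-fold lower. It has 1 probe set, so no repeat reading was at hand. Nr1h4 (FXR), the bile acid receptor that induces Nr0b2, had 569.6 on the diosgenin array and 624 on the control array, a log2 ratio of -0.13. Both genes were lower, but the FXR difference was within the spread between probe sets of a gene. Nr1h3 (LXRα), the oxysterol receptor of liver, was at the same level on both arrays, with signals of 339 (diosgenin) and 333 (control). Nr5a2 (LRH-1), which activates both Cyp7a1 and Nr0b2, had 291 on the diosgenin array and 279.7 on the control array by its brightest probe set. Its probe sets disagreed, with log2 ratios of 0.056, -0.47 and 0.19, the last from a probe set that can bind several transcripts.

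The promoter window of Nr0b2 is printed because Nr5a2 acts on this gene through sites built on TCAAGG, which are in capitals. The window is from RefSeq (GRCm38.p6, chr4:133553126-133553425, plus strand) and runs from 250 bases before the start site to 50 after it.
Nr0b2: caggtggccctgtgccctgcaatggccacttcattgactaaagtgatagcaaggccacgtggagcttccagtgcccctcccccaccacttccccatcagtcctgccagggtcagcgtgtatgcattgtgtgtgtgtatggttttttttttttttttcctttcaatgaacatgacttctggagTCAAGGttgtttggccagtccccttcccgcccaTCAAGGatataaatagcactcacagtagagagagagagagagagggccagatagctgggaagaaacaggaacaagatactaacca
TCAAGG was searched on both strands, and both matches lay on the gene's own strand, 68 and 35 bases before the start. Of 32851 promoter windows of this length 14.4% held at least 1 match, so a match describes the sequence and does not mark a site.

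Genes under FXR and its partners were nearly level, apart from Cyp7a1. Of 11 listed, 9 passed the filter, 6 of them higher and 3 lower. Their median log2 ratio was 0.013 beside -0.0053 for all genes. Cyp7a1, whose product catalyses the committed step from cholesterol to bile acids, had 261 on the diosgenin array and 631 on the control array, 2.42-fold lower, and it was the only listed gene past 1.5-fold. Cyp7a1 and its repressor Nr0b2 were thus both lower on the diosgenin array. Of 10 LXR targets, all above the filter, 5 were higher and 5 lower, and the list median was -0.0071. The sterol exporter subunit Abcg5 had 604 on the diosgenin array and 392 on the control array, 1.54-fold higher, and no other LXR target passed 1.5-fold.

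The xenobiotic receptors differed little between the arrays. Nr1i3 (CAR), which induces Cyp2b enzymes, had 518 on the diosgenin array and 428 on the control array, 1.21-fold higher by its only probe set. Nr1i2 (PXR), the regulator of Cyp3a enzymes, had 144 and 164 on the diosgenin and control arrays by its brightest probe set, and 132 on each by the other one. The log2 ratios of both genes, 0.28 and -0.18, lay within the spread between probe sets. Vdr, the vitamin D receptor, was under the filter with 11.9 on the diosgenin array and 14.9 on the control array.

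Of 15 listed PXR and CAR targets 12 passed the filter, 8 higher and 4 lower, and the list median was 0.15. Slco1a4, an organic anion uptake carrier, was 2.48-fold higher with 256 on the diosgenin array and 103 on the control array. Cyp3a13, a drug-oxidizing P450, was 2.30-fold higher with 869 and 379 on these arrays. Both differences were larger than those of the Nr1i2 and Nr1i3 transcripts. Cyp3a11 had 9096 on the diosgenin array and 9502 on the control array, and Cyp2b10 had 79.2 and 87.0. Their log2 ratios of -0.063 and -0.14 put them among the 4 lower targets, within the spread between probe sets.

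Transcripts of all 3 PPARs were lower by their brightest probe sets, and the largest difference was that of Ppard, a dim probe set. Ppard (PPARβ/δ), a fatty acid receptor, had 23.1 on the diosgenin array and 65.7 on the control array, a log2 ratio of -1.51 or 2.84-fold lower, the 22nd lowest of 9732 genes. It passed the filter only through its control signal, and its other probe set was far under the floor on both arrays. Pparg, the adipocyte receptor, was at 33.1 on the diosgenin array and 40.9 on the control array, a log2 ratio of -0.31 close to the filter. Ppara, the main fatty acid receptor of liver, gave no single direction. Its probe sets had 1126, 1117 and 632 on the diosgenin array, against 1207, 966 and 508 on the control array, with log2 ratios of -0.10, 0.21 and 0.31. The median of these put Ppara at 0.21, whereas the brightest alone put it slightly lower.

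PPARα targets likewise went both ways, with 4 higher and 8 lower among 12 above the filter of 17 listed and a list median of -0.048. Pdk4, the kinase that shuts off pyruvate dehydrogenase in fasting, had 46.1 on the diosgenin array and 130.3 on the control array, 2.83-fold lower. Vnn1, a pantetheinase, was 1.63-fold higher with 112 and 68.9 on these arrays. Under the filter, Fgf21, a fasting hormone, had 27.7 on the diosgenin array and 9.39, below the floor, on the control array.

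Of the 6 retinoid receptors, 5 passed the filter, 1 higher and 4 lower, at a median of -0.20. Rarb, a retinoic acid receptor that is itself induced by retinoic acid, had 31.2 on the diosgenin array and 58.2 on the control array, a log2 ratio of -0.90 or 1.87-fold lower, by its only probe set. This lay just inside the central 95% of genes of like signal, which spanned -0.95 to 0.83. Rarg was inconsistent, with 64.4 (diosgenin) and 74.6 (control) on the brightest probe set but 38.4 and 24.7 on the other, log2 ratios of -0.21 and 0.64. The dimmer Rarg probe set passed the filter only through its diosgenin signal, so it could only count as higher. Rara was under the filter, with 20.6 on the diosgenin array and a control signal of 1.31 under the floor, which gives a bound of at least 1.91-fold higher. Rxra, the main heterodimer partner in liver, had 1112 on the diosgenin array and 971 on the control array, and its log2 ratios were 0.19 and 0.13 by its 2 probe sets above the filter. Rxrb had 240.3 on the diosgenin array and 275 on the control array, and Rxrg had 45.9 and 48.95 on these arrays. All 3 retinoid X receptors thus lay within the spread between probe sets of a gene.

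Rarb is a textbook target of its own family through a pair of direct repeats in its promoter, and the same arrangement stands upstream of Cyp26a1, which breaks down retinoic acid. Both windows, of the same extent as that of Nr0b2, are shown with the match to GTTCA, any 6 bases and GTTCA in capitals, from RefSeq (GRCm38.p6, Rarb at chr14:16575427-16575726, minus strand, and Cyp26a1 at chr19:37697558-37697857, plus strand). Each is written along its gene's strand.
Rarb: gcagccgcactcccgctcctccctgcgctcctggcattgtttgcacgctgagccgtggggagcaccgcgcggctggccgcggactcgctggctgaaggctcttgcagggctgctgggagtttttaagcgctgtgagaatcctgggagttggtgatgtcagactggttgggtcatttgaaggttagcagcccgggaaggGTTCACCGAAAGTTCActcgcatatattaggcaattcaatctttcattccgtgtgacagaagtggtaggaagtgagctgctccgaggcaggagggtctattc
Cyp26a1: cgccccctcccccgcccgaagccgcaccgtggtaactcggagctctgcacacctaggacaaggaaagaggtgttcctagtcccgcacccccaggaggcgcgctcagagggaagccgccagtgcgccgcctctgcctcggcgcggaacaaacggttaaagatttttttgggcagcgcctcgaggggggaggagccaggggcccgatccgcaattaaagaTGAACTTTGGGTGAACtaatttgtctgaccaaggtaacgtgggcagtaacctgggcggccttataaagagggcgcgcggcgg
Both strands were searched. The match lay 52 to 37 bases before the start in Rarb and, on the opposite strand, 32 to 17 bases before it in Cyp26a1. Only 25 of the 32851 windows, or 0.0761%, held it, and of the 33 receptors and coregulators with a window only Rarb did. No other gene with this element was compared. Cyp26a1 had 853 on the diosgenin array and 827 on the control array, a log2 ratio of 0.044, beside -0.90 for Rarb. The related hydroxylase Cyp26b1 had 7.30, under the floor, on the diosgenin array and 70.5 on the control array, at least 6.56-fold lower. Cyp26b1 passed the filter only through its control signal, so it could only count as lower. Of 8 listed retinoid targets 5 passed the filter, 3 higher and 2 lower, and their median (0.044) and mean (-0.48) had opposite signs, with Cyp26b1 far below the others.

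Rarb and Cyp26b1 are also transcribed in cells other than hepatocytes, so marker levels are given beside them. Of 7 stellate cell markers, the cells that store vitamin A, 6 passed the filter and all 6 were higher. Their median log2 ratio was 0.35 and their summed signal 2656 on the diosgenin array and 2129 on the control array. The collagen gene Col1a1 was under the filter, at 17.2 on the diosgenin array and 31.3 on the control array. Of 7 markers of liver endothelium 6 were lower and 1 higher. Their median was -0.23, and their summed signals were 1215 on the diosgenin array and 1615 on the control array. Their part in the lower Rarb signal was not tested. In bulk liver, fewer cells of a type and less RNA per cell cannot be told apart.

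Hnf4a, the receptor that maintains hepatocyte identity, was even between diets, with 2311 on the diosgenin array and 2247 on the control array. All 4 of its probe sets were slightly higher, with log2 ratios of 0.040 to 0.34, where the brightest and the highest can bind several transcripts. Its relative Hnf4g was under the filter on every probe set, the brightest having 1.15 on the diosgenin array and 12.0 on the control array. Rora, an activator that competes with clock repressors for the same sites, was lower on all 6 probe sets above the filter, though only slightly. Its brightest probe set had 374 on the diosgenin array and 419.7 on the control array, and the 6 log2 ratios ran from -0.33 to -0.094. Dimmer Rora probe sets under the filter went both ways, with log2 ratios of 0.28, -0.58 and 0.23, all but the first with a signal under the floor. Of 12 listed HNF4α targets 10 passed the filter, 4 higher and 6 lower, at a median of -0.076. By brightest probe sets none passed 1.5-fold, and the largest differences were those of coagulation factor F7 and apolipoprotein Apob. F7 had 971 on the diosgenin array and 712 on the control array, and Apob had 3671 and 4480. The median over the 2 probe sets of Apob was lower, a log2 ratio of -0.61, which is past 1.5-fold.

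Of the orphan receptors 5 of 6 passed the filter, 4 higher and 1 lower, at a median of 0.14. Nr2c2 (TR4), a testicular orphan receptor also made in liver, had 289.5 on the diosgenin array and 215 on the control array, a log2 ratio of 0.43 or 1.34-fold higher. Dimmer Nr2c2 probe sets, all under the filter, went both ways, with 27.5 and 18.4 on the diosgenin array, against 16.9 and 27.6 on the control array. Another, near the floor, had 11.6 on the diosgenin array and 9.60 on the control array. Its partner Nr2c1 (TR2) had 111 on the diosgenin array and 87.9 on the control array by the brightest probe set, 1.27-fold higher. The other 2 Nr2c1 probe sets above the filter gave log2 ratios of 0.52 and -0.32, and one under it had 29.4 on the diosgenin array and 21.2 on the control array. TR2 and TR4 form a heterodimer, and the brightest probe sets of both were higher, but neither gene had all its readings on the same side.

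The COUP transcription factors gave no common direction. Nr2f2 had 192 on the diosgenin array and 185 on the control array, with log2 ratios of -0.037 to 0.19 over 4 probe sets. Nr2f6 had 618 on the diosgenin array and 560.5 on the control array by its brightest probe set, whereas another had 189 and 243.5, log2 ratios of 0.14 and -0.36, the second beyond the spread between probe sets. Nr2f1 was under the floor on both arrays, at 3.72 (diosgenin) and 8.17 (control), so no difference can be read for it. Nr6a1, the germ cell nuclear factor, had 64.9 on the diosgenin array and 76.4 on the control array, a log2 ratio of -0.24.

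Among the steroid receptors, Esr1 stood out. Esr1, the estrogen receptor of liver, had 274 on the diosgenin array and 196 on the control array, a log2 ratio of 0.48 or 1.40-fold higher. The second probe set, at 62.1 on the diosgenin array and 30.1 on the control array, was 2.06-fold higher, and a dim one under the filter had 14.96 and 11.9 on these arrays. All 3 readings of Esr1 were thus higher, and its brightest one lay beyond the central 95% of genes of like signal, -0.52 to 0.47. Nr3c1, the glucocorticoid receptor, was level, with 547 on the diosgenin array and 513 on the control array and log2 ratios of -0.039 to 0.099 over 5 probe sets. Nr3c2, the mineralocorticoid receptor, had 53.6 on the diosgenin array and 63.3 on the control array. Esrra, a regulator of mitochondrial genes, had 165 on the diosgenin array and 163 on the control array.

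All 13 listed glucocorticoid receptor targets passed the filter, 9 higher and 4 lower, at a median of 0.16. Per1, which is also a clock gene, was 2.03-fold higher with 85.9 on the diosgenin array and 42.3 on the control array. Dusp1, a phosphatase that also answers to acute stress, was 1.80-fold lower with 233 and 419 on these arrays. The largest differences of the list therefore pointed in opposite directions.

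Among the coregulators, 2 of the 6 that passed the filter were higher and 4 lower, at a median of -0.069. Nrip1 (RIP140), a corepressor that binds many ligand-activated receptors and represses genes of energy expenditure, had 127 on the diosgenin array and 182 on the control array, a log2 ratio of -0.52 or 1.44-fold lower. All 6 of its probe sets were above the filter and lower, with log2 ratios from -1.31 to -0.017 and a median of -0.32. The lowest reading came from a dim probe set, at 21.8 on the diosgenin array and 54.2 on the control array. This one and another, at 24.8 on the diosgenin array and 33.0 on the control array, passed the filter only through their control signals, so they could only count as lower. The other 4 had log2 ratios of -0.52, -0.23, -0.21 and -0.017, the last of them level at 28.5 on the diosgenin array and 28.8 on the control array. Among genes with several probe sets above the filter, 51.4% had all on 1 side, and so did 9 of 18 receptors and coregulators.

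**Figure D3:**
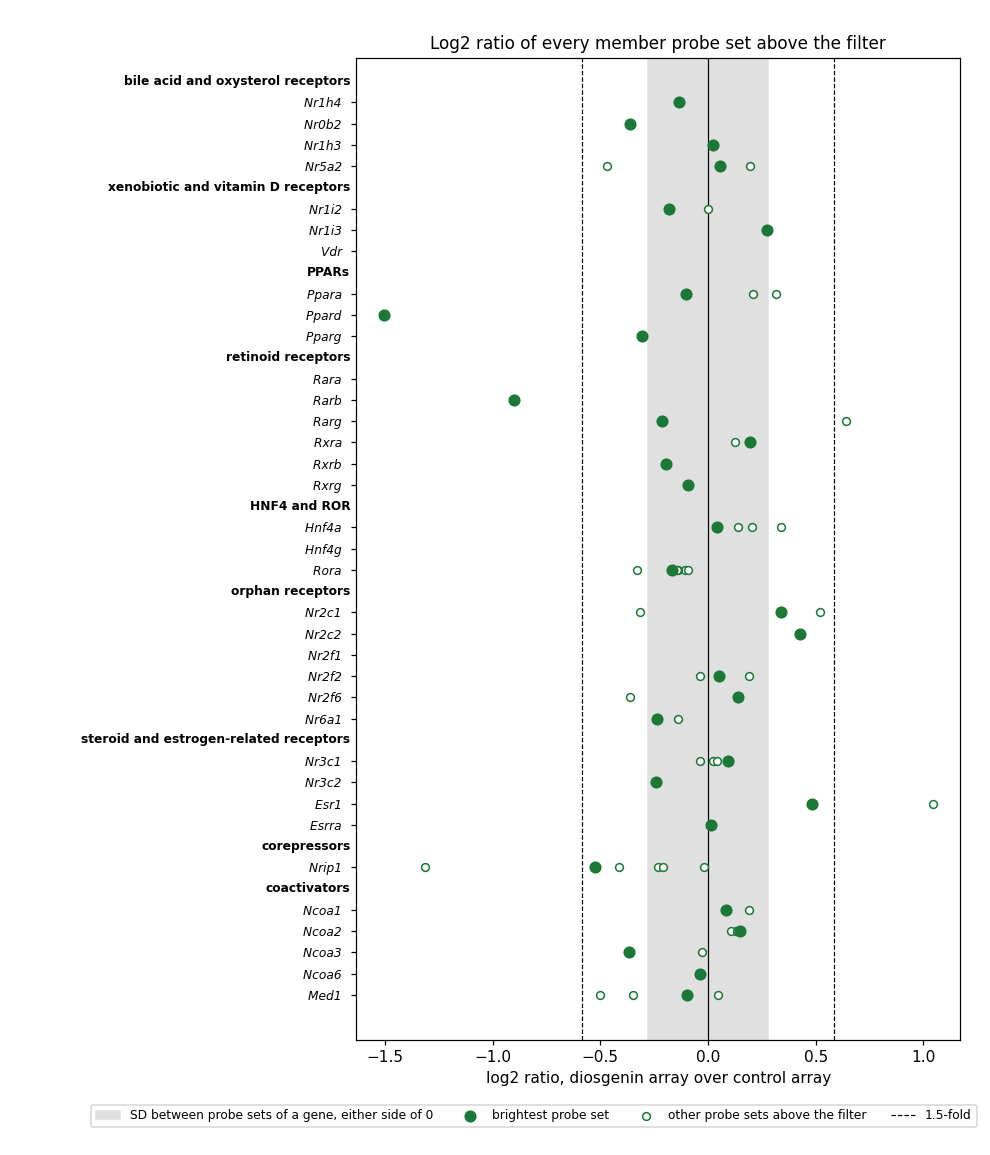
Log2 ratio (diosgenin over control) of every probe set above the filter for each gene, with the brightest as filled points and the others as open points; the grey band is the standard deviation of 0.28 between probe sets of a gene and dashed lines mark 1.5-fold. Nrip1 and Rora have all 6 points on the lower side, 2 of those of Nrip1 above the filter only through the control array. Esr1 has both points on the higher side, while Ppara, Rarg, Nr5a2 and Nr2c1 have points on both sides of 0. The higher point of Rarg is above the filter only through the diosgenin array.

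The p160 coactivators, which recruit histone acetyltransferases to receptors, did not move alike. Ncoa1 (SRC-1) had 159 on the diosgenin array and 151 on the control array, and Ncoa2 (TIF2) had 418 and 377. Ncoa2 was slightly higher on all 4 probe sets, with log2 ratios of 0.11 to 0.15. Ncoa3 (SRC-3) had 61.6 on the diosgenin array and 79.5 on the control array, 1.29-fold lower, while its second probe set was level at 39.1 (diosgenin) and 39.8 (control). Ncoa6, a coactivator of histone methyltransferase complexes, had 169 and 173 on the diosgenin and control arrays. Med1, the Mediator subunit that contacts receptors, had 152 on the diosgenin array and 162 on the control array, and its 4 probe sets above the filter ranged from -0.50 to 0.046. The lowest of these passed the filter only through its control signal, so it could only count as lower. Another Med1 probe set, well above the filter on both arrays, had 109.8 on the diosgenin array and 139.9 on the control array, a log2 ratio of -0.35. By brightest probe sets the differences among coactivators were thus small, and in Ncoa3, the largest of them, a single probe set carried the difference.

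Of 22 further coregulators listed, 19 passed the filter, 15 higher and 4 lower, at a median of 0.096. Ppargc1a (PGC-1α), the fasting-induced coactivator of Hnf4a, Ppara and Esrra, had 70.9 on the diosgenin array and 38.7 on the control array. It was 1.83-fold higher and the only one past 1.5-fold by brightest probe sets. The median over its 2 probe sets was 0.71. Smarca4 was at -0.44 by its brightest probe set and at -0.62, past 1.5-fold lower, by the median of 2. Crebbp, counted as higher at 0.24, had a median of -0.30 over 3 probe sets. Among 11 further receptors listed, 8 had a probe set and 0 passed the filter. The plot of target lists shows single genes far from 0 around list medians close to it.

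**Figure D4:**
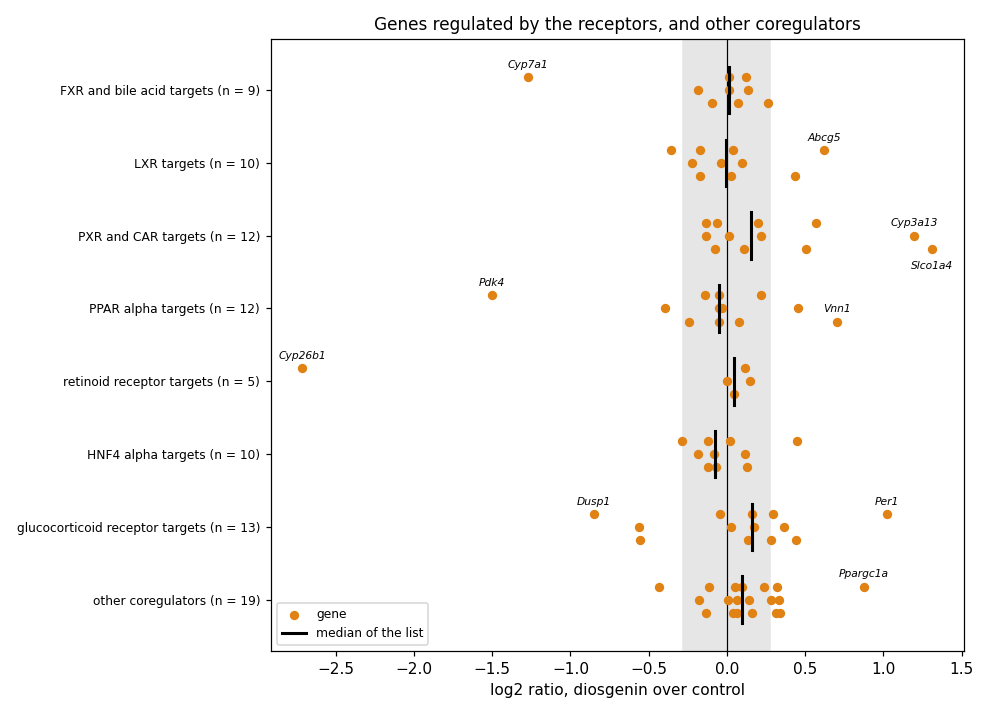
Log2 ratio (diosgenin over control) of each gene above the filter in the lists of receptor targets and further coregulators, with black bars as list medians and the grey band as the standard deviation of 0.28 between probe sets of a gene. Medians lie between -0.076 and 0.16, and the genes named are those at least 1.5-fold apart, from Cyp26b1 at -2.71, where the floor makes it a bound, to Slco1a4 at 1.31. Cyp26b1 is above the filter only through the control array.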

How the data were processed

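Liver RNA pooled from 3 mice per diet was hybridised to 1 Affymetrix array each, and the submitters' processing notes name the GCOS software. The authors deposited a linear intensity for each of 45101 probe sets. A global scaling of both arrays before deposit was inferred from their nearly equal trimmed mean signals. How probe signals were summarised is not given in the sources used here, and no detection calls were used.

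In the array's annotation 34958 probe sets had 1 symbol, 932 several and 9211 none. Gene identifiers of all 35 genes described matched the RefSeq table of GRCm38.p6. Computations used Python 3.11.15, numpy 2.4.6 and pandas 2.3.3, with the floor at the 40th and the filter at the 60th percentile of signals, and were tested on simulated data. No test was possible with 1 array per diet, and the number of arrays limits the precision.

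The members, their grouping by role, the lists of targets, further coregulators and cell type markers were chosen with earlier results of these data known. Genes with a log2 ratio of at least 0.32 in size were described with all probe sets above the floor. From each target list up to 4 genes at least 1.5-fold apart were named, or the 2 largest where none was. Cyp26a1, Fgf21, Cyp3a11, Cyp2b10, Papss2, Ces2a, Smarca4 and Crebbp fall outside this rule and were chosen after their values were seen. The same holds for the cell type markers named (Alb, Col1a1, Marco, Clec4f, Adgre1, Sox9, Krt19, Epcam, Krt7, Cd79a, Cd79b and Ms4a1). Alternatives covered the floor, filter, scaling, centring, log offset and choice of probe set.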

Additional observations from a re-analysis of the deposited data

How the results depend on the processing

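Of 298 log2 ratios of single genes under 10 alternatives, 5 moved by more than the standard deviation between probe sets and 0 genes at least 1.5-fold apart changed sign. Changing the filter or lowering the floor could not alter the ratio of a receptor or coregulator that was kept. Ppard and Rarb, the genes at least 1.5-fold apart, have 1 probe set each above the filter, so the choice of probe set could not change their sign. Nor could a floor or log offset, so the 0 carries little weight. Ppard went to -1.21 with the floor at the 60th percentile and to -1.06 with a pseudocount of 16. Where the probe sets of a gene were reduced to their median, Esr1 was at 0.76, Ppara at 0.21 and Rarg at 0.21, with Ppara, Rarg and also Nr2f6 (-0.11) changing sign. For Rarg this rests on a probe set that passed the filter only through its diosgenin signal. The count at least 1.5-fold higher was 0, and it was 1 without the filter (Rara) and 1 with the median of probe sets (Esr1). The count at least 1.5-fold lower was 2, and it was 0 with the filter at the 75th percentile, which removed Ppard and Rarb. It was 1 where both arrays had to reach the filter, an alternative chosen after seeing the data, which removed Ppard. The median log2 ratio of -0.092 became 0.040 with the filter at the 75th percentile, over 23 genes, and -0.039 with the median of probe sets. Under the other alternatives both counts stayed, and the median lay between -0.092 and -0.061. No paired analysis was possible because each diet had 1 array. Low signal limits Ppard, Rarb, Pparg and Rara, and no alternative can stand in for the missing spread between mice.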

Other observations

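Markers of other liver cells, a list read here beside the receptors, went in different directions. All 7 Kupffer and myeloid markers passed the filter, and 5 were higher and 2 lower. Their median log2 ratio was 0.12, and their summed signals were 2341 on the diosgenin array and 2117 on the control array. Marco, a macrophage scavenger receptor, had 45.1 on the diosgenin array and 13.3 on the control array, 3.39-fold higher and the only one past 1.5-fold, although it passed the filter only through its diosgenin signal. Clec4f, a Kupffer cell lectin, had 439 on the diosgenin array and 341 on the control array, while the macrophage marker Adgre1 (F4/80) had 143 and 149 on these arrays. Of 6 hepatocyte markers above the filter 1 was higher and 5 lower, at a median of -0.088.

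The biliary transcription factor Sox9 had 26.1 on the diosgenin array and 42.0 on the control array. Of 5 biliary markers listed, 4 had a probe set, and Sox9 was the only one above the filter. It passed only through its control signal, which fixes its direction as lower. Krt19 and Epcam, also biliary, were under the filter, with 13.2 and 10.2 on the diosgenin array, against 25.6 and 28.4 on the control array. Krt7, at 8.59 on the diosgenin array and 9.598 on the control array, was under the floor on both. None of 6 lymphocyte markers passed the filter. Among the B cell genes of this list, Cd79a had 27.7 on the diosgenin array and 9.86, under the floor, on the control array. The other B cell genes differed less. Cd79b had 17.9 on the diosgenin array and 14.6 on the control array, a log2 ratio of 0.29. Ms4a1 had 15.5 on the diosgenin array and 14.95 on the control array, a log2 ratio of 0.053.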
